A study of Mus musculus and Mus musculus musculus x Mus musculus castaneus with 8 samples.

Results

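Called ATAC-seq peaks were followed at 2 imprinted loci, a 200 kb window around Igf2 and H19 on chromosome 7 (149700000 to 149900000) and a 200 kb window around Dlk1 and Meg3 on chromosome 12 (110650000 to 110850000), in mm9 coordinates. The members were all peaks of the 5 deposited peak lists that overlapped either window by at least 1 bp. They numbered 23 of 151729 peaks in all, 10 at Igf2-H19 and 13 at Dlk1-Meg3. Peaks were taken by their position in the windows and not by a measured value, although the windows were chosen with earlier results of these data known.

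ATAC-seq maps open chromatin through a transposase that inserts adaptors into accessible DNA. The 8 libraries fell into 5 conditions, and each condition had 1 peak list. C2C12, a mouse myoblast cell line labelled as strain C3h, was assayed with 50000 cells (2 libraries) and with 1000 cells (2 libraries, amplified without kit purification). Mouse embryonic fibroblasts (MEFs) came from embryos of a Mus musculus musculus x Mus musculus castaneus cross and were permeabilized. They were assayed as donor cells (3000 cells, 1 library), 48 h after nuclear transfer (NT) into Xenopus oocytes (3000 cells, 2 libraries) and 48 h after NT with Toca1 overexpressed in the host oocytes (3000 cells, 1 library). Toca1, also named Fnbp1l, promotes actin polymerization. The NT nuclei were pooled from several oocytes, and neither the NT nuclei nor their hosts divide in this system.

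Imprinted genes are expressed mainly from the allele of 1 parent. At the chromosome 7 locus, paternal Igf2 encodes a fetal growth factor and maternal H19 a non-coding RNA. A control region between them is methylated on the paternal copy and binds the insulator protein CTCF on the maternal copy, and both genes share enhancers on the far side of H19. At the chromosome 12 locus, paternal Dlk1 encodes a transmembrane protein related to Notch ligands, and maternal Meg3 a non-coding RNA. A methylated region between these genes controls them as well. Both loci are known for high activity in embryonic mesoderm, including muscle precursors.

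From low to high coordinates, the RefSeq gene table gives the order Lsp1, Prr33, Tnnt3, Mrpl23, Nctc1, H19, Igf2, Ins2 and Th on chromosome 7. Among them, Tnnt3 encodes fast skeletal troponin T, Mrpl23 a mitochondrial ribosomal protein, Nctc1 a non-coding RNA, Ins2 insulin and Th tyrosine hydroxylase. On chromosome 12 the order is Wdr25, Begain, Dlk1, Meg3, Rtl1, Rian, Mirg and Dio3. Rtl1 encodes a retrotransposon-derived protein, Rian and Mirg are non-coding RNAs, and Dio3 encodes a deiodinase that inactivates thyroid hormone. This order comes from another genome build and serves as a guide only. No mm9 gene annotation or genome sequence was used here, so no peak was assigned to a promoter, a gene body or a control region, and no peak sequence was read. The lists do not separate the parental alleles, although the MEFs were hybrid.

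No peak lay in either window in the list of MEFs after NT, whereas every other list held at least 1 peak in each. The numbers at Igf2-H19 were 4 for C2C12 from 50000 cells, 1 for C2C12 from 1000 cells, 4 for donor MEFs, 0 after NT and 1 after NT with Toca1. At Dlk1-Meg3 the same lists held 3, 6, 1, 0 and 3 peaks. The donor MEF count was thus higher at Igf2-H19, and the count with Toca1 was higher at Dlk1-Meg3. With 1 list per condition, no spread between replicates could be given and none of these differences was tested. The lists hold no read numbers, so the depth of a library is unknown, and 8257 (after NT) to 52697 (C2C12 from 50000 cells) peaks were called in all.

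**Figure D1:**
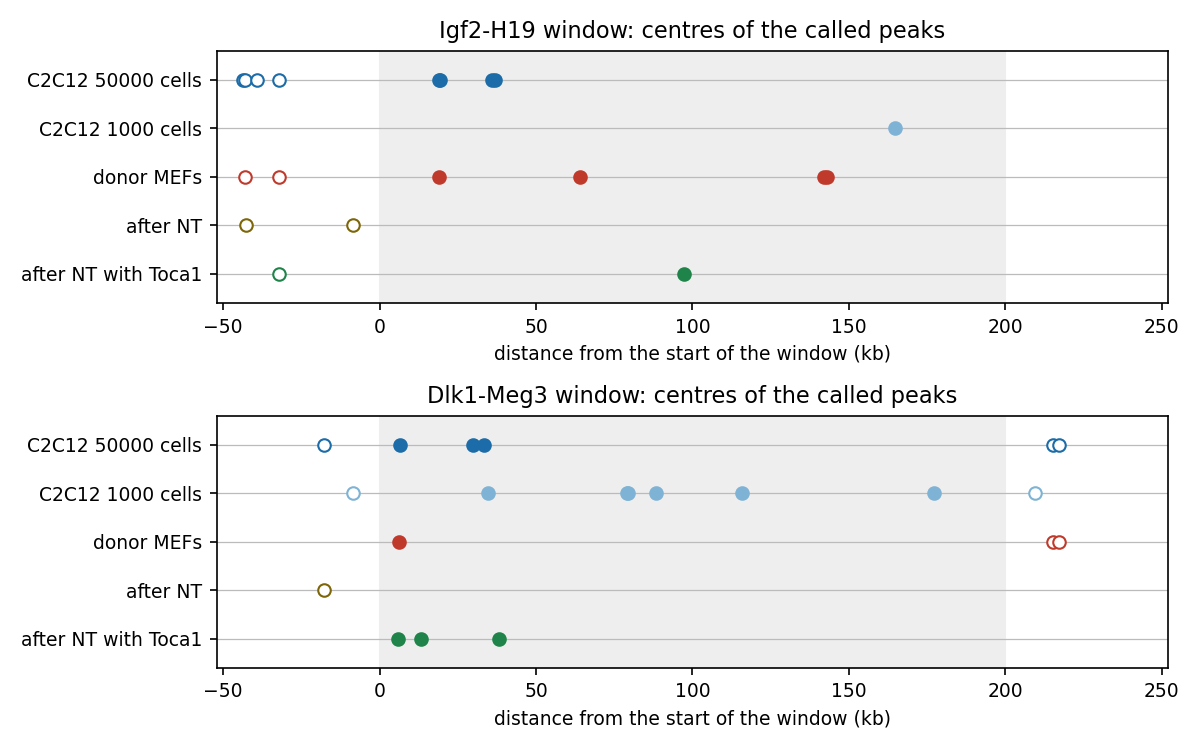
Centres of the called peaks in each list, in kb from the start of the window (grey); filled circles lie in the window, open circles within 50 kb of it, and the circles are not drawn to peak width. After NT the grey area is empty at both loci, and the 3 open circles of that list lie on the low-coordinate side.

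Peak numbers were set beside those of all 13181 tiles of 200 kb in the genome. At least 1 peak was found in 66.8% of tiles in C2C12 from 50000 cells, 81.9% in C2C12 from 1000 cells, 64.8% in donor MEFs, 34.5% after NT and 44.4% after NT with Toca1. An empty window after NT was therefore the more frequent state, at 65.5% of tiles. In donor MEFs, 4 peaks or more, as at Igf2-H19, were held by 35.0% of tiles. With Toca1, 3 peaks or more, as at Dlk1-Meg3, were held by 18.9% of tiles, and in C2C12 from 1000 cells 6 or more by 11.5%. The other counts were less rare. In C2C12 from 50000 cells, 42.7% of tiles held 4 or more, as at Igf2-H19, and 49.6% held 3 or more, as at Dlk1-Meg3. Windows with 1 peak were those of donor MEFs at Dlk1-Meg3 (64.8% of tiles with at least 1), and at Igf2-H19 of Toca1 (44.4%) and C2C12 from 1000 cells (81.9%). Both windows had no peak after NT and at least 1 with Toca1, a combination found in 13.9% of all tiles. For tiles with the same number of donor peaks as the windows, chosen after the counts were seen, 48.6% of the tiles with 4 donor peaks and 82.4% of those with 1 donor peak were empty after NT. Of the tiles with 1 donor peak, 3.83% held at least 3 peaks with Toca1, as the Dlk1-Meg3 window did.

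**Figure D2:**
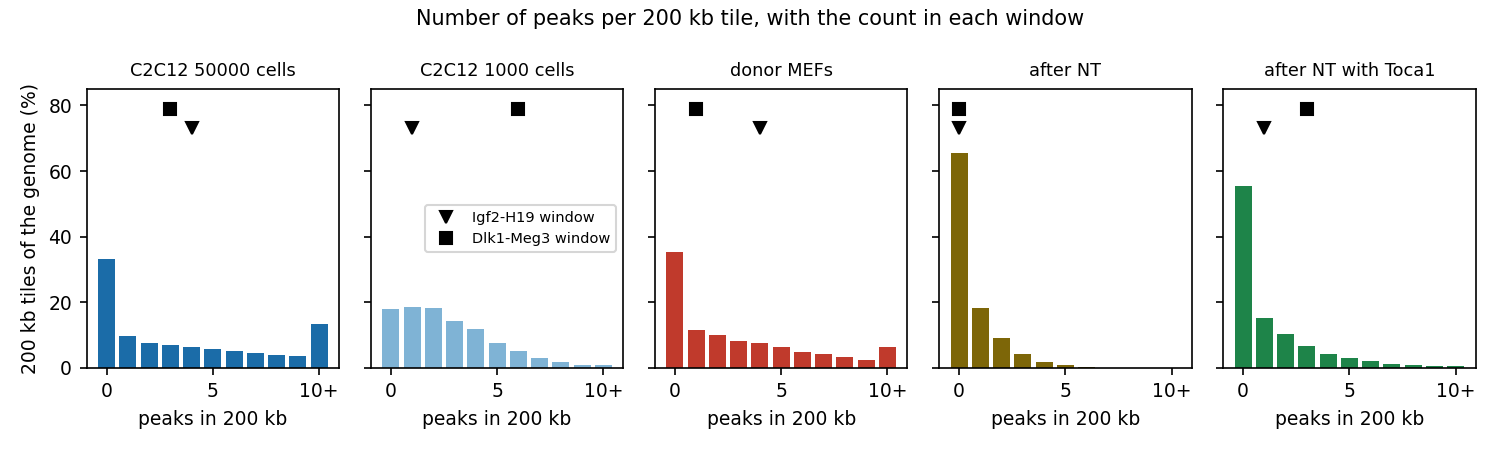
Share of the 200 kb tiles of the genome (y axis, %) by the number of peaks they hold (x axis, 10 or more joined) in each list; the triangle and the square mark the counts of the Igf2-H19 and Dlk1-Meg3 windows and have no y value. Both marks stand at 0 after NT, the count of 65.5% of tiles.

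Peaks of different lists that overlapped by at least 1 bp were joined into sites, which gave 9 sites at Igf2-H19 and 11 at Dlk1-Meg3. Of these 20 sites, 18 were found in 1 list, 1 in 2 lists and 1 in 3 lists. Over all lists, 73.8% of 107469 sites were found in 1 list, 17.7% in 2 lists and 5.20% in 3 lists. Sites in at least 2 lists were thus 2 of 20 in the windows and 26.2% over all lists. The C2C12 list from 1000 cells held 7 of the 18 sites of a single list. Over all lists, 79355 sites were in 1 list, and only 3442 of the 34771 peaks from 1000 cells overlapped a peak of any other list. Peaks found in this list alone were thus frequent in the whole genome too.

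At Igf2-H19, the site shared by C2C12 and donor MEFs was the lowest in coordinates, 18.7 kb into the window. In donor MEFs it spanned 149718667 to 149719267, a width of 601 bp. In C2C12 from 50000 cells a peak of 298 bp, from 149718912 to 149719209, lay wholly within it. A second C2C12 peak, from 149719325 to 149719525, began 57 bp beyond the donor peak and was 201 bp wide. The centres of the overlapping donor and C2C12 peaks were 93.5 bp apart, against a median of 62 bp over all 26278 overlapping pairs of these lists. Neither NT list had a peak here, and the nearest peaks lay 27116 bp away after NT and 50702 bp away with Toca1.

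The other sites of this locus belonged to 1 list each. C2C12 from 50000 cells had a pair of peaks near 36 kb into the window, from 149735978 to 149736193 (216 bp) and from 149736806 to 149737303 (498 bp). No donor MEF peak came closer to them than 16710 bp. Donor MEFs had a peak of 250 bp 64.0 kb into the window, from 149763974 to 149764223, that was 26670 bp from the nearest peak of C2C12 from 50000 cells. A pair of donor peaks followed 141.9 kb into the window, from 149841940 to 149842266 (327 bp) and from 149842816 to 149843052 (237 bp). These were more than 100 kb, at 104636 and 105512 bp, from a peak of C2C12 from 50000 cells. The 4 peaks of C2C12 from 50000 cells thus lay in the low-coordinate part of the window, which is the side of Tnnt3, Mrpl23 and Nctc1 in the gene order, and donor peaks were spread over more of it.

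The NT list with Toca1 held 1 peak at Igf2-H19, from 149797046 to 149797327 (282 bp). It lay between donor MEF peaks, 32822 bp from the nearest, and no other list had a peak there. The peak of C2C12 from 1000 cells, from 149864703 to 149864960 (258 bp), was also alone, 164.7 kb into the window and 127399 bp from any peak of the list from 50000 cells.

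At Dlk1-Meg3, the site found in 3 lists lay 5.7 kb into the window. It was a peak of 699 bp in donor MEFs, from 110655740 to 110656438. C2C12 from 50000 cells had a peak of 582 bp, from 110656151 to 110656732, and the NT list with Toca1 a peak of 453 bp, from 110655671 to 110656123. The C2C12 peak lay to the high-coordinate side and the Toca1 peak to the low-coordinate side of the donor centre. Both overlapped the donor peak, by 288 and 384 bp, but they were 27 bp apart from each other, so the site rests on the donor peak.

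The centres at this site differed by 352.5 bp between C2C12 and donor MEFs, and 3.58% of all overlapping pairs of these lists were at least as far apart. The share was taken for this pair because it was the farthest apart of these lists in the windows. Both peaks were also wide, as 90.4% of the donor list and 75.2% of the C2C12 list were narrower. Between donor MEFs and Toca1 the centres were 192.0 bp apart, and 37.8% of overlapping pairs were at least as far apart, with a median of 143 bp. After NT without Toca1, the nearest peak to the donor peak was 23434 bp away. This combination, in C2C12 from 50000 cells and with Toca1 but not after NT, was seen for 1 of the 5 donor peaks of the windows and for 11.3% of all donor peaks. Another 1 of 5, at Igf2-H19, was overlapped in C2C12 only, as were 44.2% of all donor peaks. The other 3 donor peaks, also at Igf2-H19, were overlapped in none of these lists, as were 33.4% of all.

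**Figure D3:**
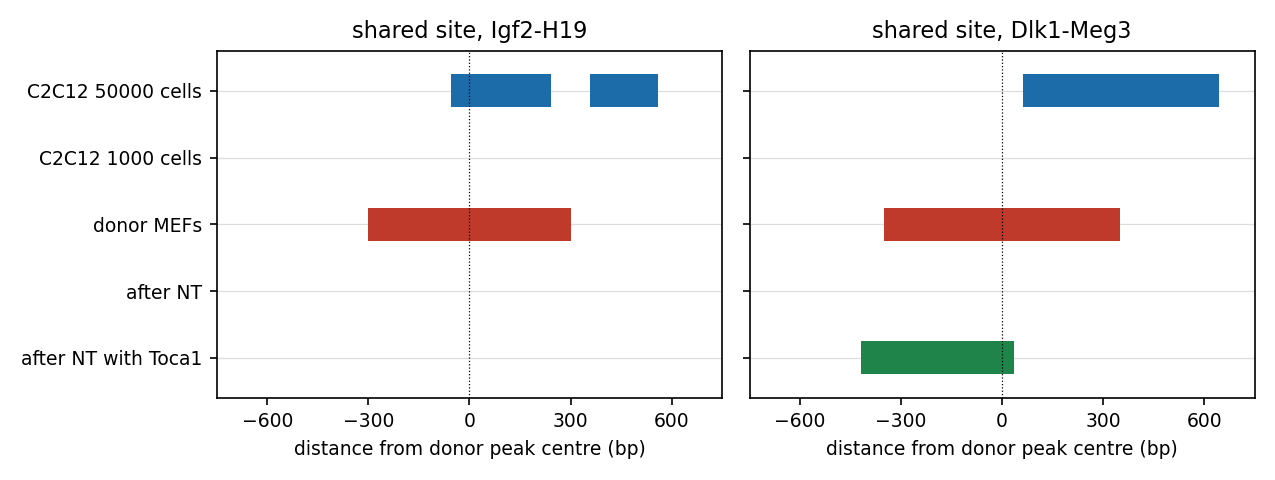
Peaks of each list at the shared sites of both windows, drawn to scale, in bp from the centre of the donor MEF peak (dotted line). At Igf2-H19 the first C2C12 peak lies within the donor peak and the second beside it, and at Dlk1-Meg3 the C2C12 and Toca1 peaks cover opposite ends of the donor peak and are 27 bp apart.

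The remaining Toca1 peaks at Dlk1-Meg3 spanned 110662883 to 110663447 (565 bp) and 110687925 to 110688347 (423 bp). They were 6444 and 31486 bp from the nearest donor MEF peak. Over both windows, 3 of the 4 Toca1 peaks were 5000 bp or more away from donor peaks, a distance met by 39.7% of all Toca1 peaks. C2C12 from 50000 cells had further peaks from 110679575 to 110679875 (301 bp) and from 110683319 to 110683509 (191 bp). The second of them was 4415 bp from the Toca1 peak that starts at 110687925 and did not overlap it.

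C2C12 from 1000 cells had 6 peaks at Dlk1-Meg3, 150 to 416 bp wide and 34.7 to 176.9 kb into the window. None of its 7 peaks in both windows overlapped a peak of another list, against 9.90% of the whole list that overlapped 1. Over the whole list, 8.48% of its peaks overlapped a peak from 50000 cells. The closest approach between the C2C12 lists was 1181 bp, between the 150 bp peak from 110684691 to 110684840 and the peak from 50000 cells that ends at 110683509. The lists of the same cell line thus shared no site at either locus. The larger number of peaks from 1000 cells at Dlk1-Meg3 rested on this list alone.

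In donor MEFs, 2 of 5 peaks overlapped a peak of C2C12 from 50000 cells (40.0%, 95% Wilson interval 11.8% to 76.9%), against 64.6% of all donor peaks. From the C2C12 side, 2 of 7 peaks overlapped a donor peak (28.6%, interval 8.22% to 64.1%), against 48.4% of the whole list. After NT, 0 of 5 donor peaks were overlapped (interval 0% to 43.4%), against 9.73% of all donor peaks. With Toca1, 1 of 5 donor peaks was overlapped (20.0%, interval 3.62% to 62.4%), against 19.7%. From the Toca1 side, 1 of 4 peaks overlapped a donor peak (25.0%, interval 4.56% to 69.9%), against 45.5% of the whole list. None of the 4 Toca1 peaks overlapped a peak of C2C12 from 50000 cells (interval 0% to 49%), against 49.6% of all Toca1 peaks. The whole-list share lay just outside the interval in this last case and within it in the 5 cases before. With 4 to 7 peaks a list, the shares are imprecise, and no test was made. Counting error is all that the intervals hold, since peaks of a list are not replicates.

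The peaks differed in width between lists and within them. In donor MEFs they were 237 to 699 bp wide, with a median of 327 bp against 399 bp for the whole list. The 2 peaks at sites shared with C2C12 were the wide ones, as 82.3% and 90.4% of the donor list was narrower. In C2C12 from 50000 cells the range was 191 to 582 bp and the median 298 bp, against 392 bp. With Toca1 the range was 282 to 565 bp and the median 438 bp, against 467 bp. In C2C12 from 1000 cells the median was 217 bp, against 258 bp. Of the 7, 7, 5 and 4 peaks of C2C12 from 50000 cells, C2C12 from 1000 cells, donor MEFs and Toca1, 2, 2, 2 and 1 were wider than the median of their list. The covered length at Igf2-H19 was 1415 bp in donor MEFs, 1213 bp in C2C12 from 50000 cells, 258 bp in C2C12 from 1000 cells and 282 bp with Toca1. At Dlk1-Meg3 the same lists covered 699, 1074, 1449 and 1441 bp.

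**Figure D4:**
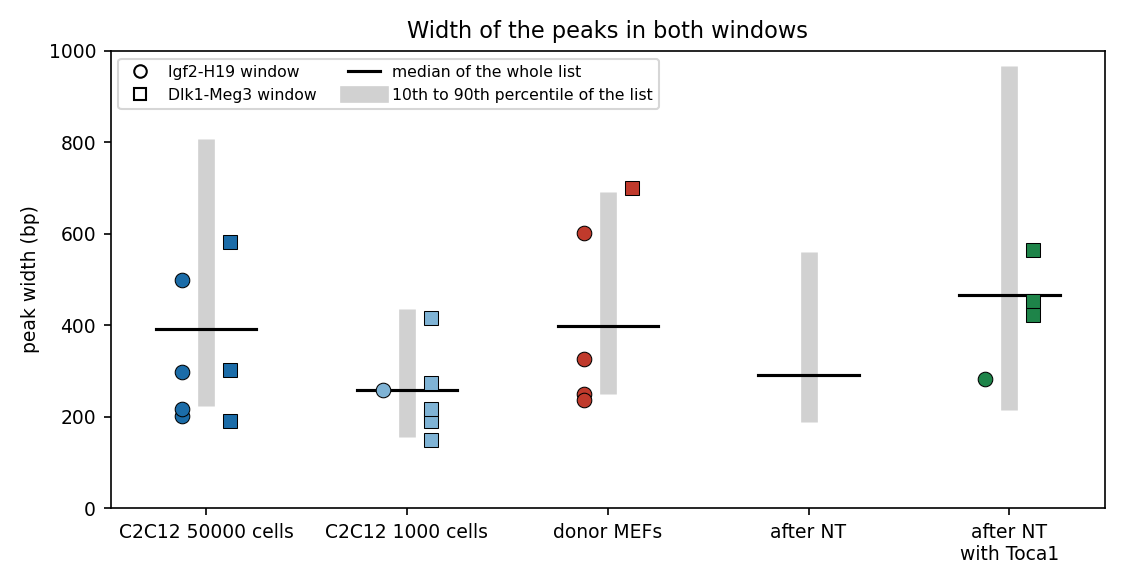
Width in bp of each peak in the Igf2-H19 (circles) and Dlk1-Meg3 (squares) windows, beside the median (line) and the 10th to 90th percentile (grey bar) of the whole list. The widest peak is the donor MEF peak of 699 bp at Dlk1-Meg3, and the column after NT has no point.

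Long stretches without a peak reached into the windows in most lists. The longest one in C2C12 from 50000 cells measured 343 kb at Igf2-H19, from 149737304 to 150080650, and 182 kb at Dlk1-Meg3, from 110683510 to 110865151. In donor MEFs it was 248 kb at Igf2-H19, from 149843053 to 150091312. The longest donor stretch that touched the Dlk1-Meg3 window, 373 kb from 110283073 to 110655739, lay mostly outside it and ended at the shared site. The list after NT had no peak over 343 kb at Igf2-H19 and 356 kb at Dlk1-Meg3, which take in both windows whole. With Toca1 the stretches were 357 kb at Igf2-H19 and 552 kb at Dlk1-Meg3, from 110688348 to 111240152. C2C12 from 1000 cells had 236 kb at Igf2-H19 and, the shortest of these, 61 kb at Dlk1-Meg3. Stretches at least as long were set beside all stretches between neighbouring peaks of a list. After NT they made up 18.3% at Igf2-H19 and 17.7% at Dlk1-Meg3, and with Toca1 7.64% and 5.18%. For C2C12 they were 1.96% and 4.06% from 50000 cells, and 5.81% and 36.3% from 1000 cells. For donor MEFs they were 3.97% and 2.53%. As the longest stretch touching a window was taken in each case, long ones were favoured, and the shares are a description only.

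Peaks after NT came close to both windows from the low-coordinate side. At Igf2-H19 the nearest one spanned 149691280 to 149691550 (271 bp), 8450 bp outside the window and 23167 bp from the nearest donor MEF peak. No other list overlapped it. The authors assigned it to the gene bodies of Tnnt3 and Prr33. At Dlk1-Meg3 the nearest one spanned 110632075 to 110632305 (231 bp), 17695 bp outside the window and 23434 bp from the nearest donor peak. A peak of C2C12 from 50000 cells, from 110632085 to 110632335, overlapped it, whereas the donor and Toca1 lists had none there. The authors gave Dlk1 as its closest transcription start site. Both peaks were thus at least 5000 bp from any donor peak, as were 38.1% of all peaks after NT.

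Sites shared by several lists also flanked the windows. On the low-coordinate side of Igf2-H19, donor MEFs (149667806 to 149668112), C2C12 from 50000 cells (149667908 to 149668086) and Toca1 (149667813 to 149667964) overlapped at a site where the list after NT had no peak. This is the same combination of lists as at the shared Dlk1-Meg3 site. Farther out on that side, peaks of donor MEFs (149656659 to 149657347), C2C12 from 50000 cells (149656651 to 149657601) and MEFs after NT (149656942 to 149657670) overlapped, and here the Toca1 list had no peak. The windows extended by 50 kb on each side held 6 donor peaks at Igf2-H19 and 3 at Dlk1-Meg3. The share of these overlapped after NT was 11.1% (Wilson interval 1.99% to 43.5%), against 9.73% of all donor peaks. With Toca1 the share was 22.2% (interval 6.32% to 54.7%), against 19.7%. Both whole-list shares lay within the intervals, which overlapped each other, and the difference between the NT lists was not tested. On the high-coordinate side of Dlk1-Meg3, the nearest peaks of donor MEFs (110865186 to 110865519) and C2C12 from 50000 cells (110865152 to 110865559) overlapped 15.2 kb outside the window, and neither NT list had a peak there. The nearest peak after NT on that side (110987909 to 110988255) lay 137.9 kb outside the window. It overlapped peaks of donor MEFs and of both C2C12 lists. On the high-coordinate side of Igf2-H19, the nearest peak after NT (150034234 to 150034400) lay 134.2 kb outside the window, and no other list overlapped it.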

How the data were processed

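ATAC-seq peak lists of 5 conditions (8 libraries) were analysed. Each list deposited by the authors holds the position of each peak in bp and a name made of it, at a false discovery rate of 0.01 by the list names. The labels name the build mm9 and the tools Bowtie2 2.2.1, Picard and MACS2 2.1, per the submitters' processing notes. How libraries of a condition were pooled, and their depth, are not given in the sources used here. Lists were matched to conditions by name, and starts were changed to 1-based.

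Peaks overlapping the windows were counted, joined into sites across lists (at least 1 bp) and set beside whole tiles of 200 kb, with the largest peak end as chromosome length. Shares of peaks carry 95% Wilson intervals. No p-value was computed, since each condition has 1 list. All 4 genes of the loci, and the 13 neighbours asked for, were found in the RefSeq table of GRCm38.p6, used for names and order only. The rule for naming took these genes, every site of the windows and the nearest peak beyond each edge. C2C12 and MEF identity was not checked against marker genes.

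Windows, lists and measures were chosen with earlier results of these data known. Alternatives were only peaks of 250 bp or more, peaks joined over gaps of at most 150 bp, windows extended by 50000 bp, other overlap rules, other tiles and leaving out a C2C12 list. In a check on simulated data, 988 of 988 peaks placed on donor MEF peaks were found, with 0 wrong calls. The simulated peaks lay either largely on donor peaks or well away from them, so working code had to give this outcome. Overlaps of a few bp were not covered. The software was Python 3.11.15, scipy 1.17.1, numpy 2.4.6 and matplotlib 3.10.9.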

Additional observations from a re-analysis of the deposited data

How the results depend on the processing

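Joining peaks up to 150 bp apart, counting peaks within 500 bp as shared and shifting the tiles by 100000 bp moved no count or covered length past 1.5 times and no share past its interval. With peaks at least 250 bp wide, C2C12 from 50000 cells kept 2 peaks and 796 bp at Igf2-H19, C2C12 from 1000 cells 2 peaks and 689 bp at Dlk1-Meg3, and Dlk1-Meg3 6 sites.

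With windows extended by 50000 bp on each side, peaks at Igf2-H19 numbered 8 (3392 bp) in C2C12 from 50000 cells, 2 (1000 bp) after NT and 2 (434 bp) with Toca1, and donor MEFs covered 2411 bp. The locus then had 14 sites, 3 of them in at least 2 lists. At Dlk1-Meg3 the numbers were 6 (2119 bp) in C2C12 from 50000 cells, 3 (1284 bp) in donor MEFs and 1 (231 bp) after NT, with 4 sites in at least 2 lists. The absence of peaks after NT thus holds for the windows as drawn and for their flanks on the high-coordinate side. It does not hold for the flanks on the low-coordinate side.

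With a reciprocal overlap of at least 50%, 0 sites at Igf2-H19 were in at least 2 lists, and 0% of the C2C12 peaks were shared with donor MEFs. The overlap at the Igf2-H19 site took in 100% of the C2C12 peak but 49.6% of the donor peak, just below this limit. Dlk1-Meg3 kept 1 site in at least 2 lists, and the share of donor peaks overlapped with Toca1 stayed at 20%. With the 1000-cell list as the only C2C12 list, 0 sites at Igf2-H19 were shared. Without that list, an alternative chosen after seeing the data, Dlk1-Meg3 had 5 sites.

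In the order C2C12 from 50000 cells, C2C12 from 1000 cells, donor MEFs, after NT and Toca1, tiles with a peak made up 59.1%, 73.2%, 57.3%, 29.6% and 41.8% on chromosomes 7 and 12, and 74.6%, 91.4%, 72.3%, 38.4% and 49.6% of tiles with a peak in any list. Beyond what the settings impose by construction, the cause was not tested.

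No paired analysis was possible because each condition has 1 peak list and no test was made. For the same reason no library was left out. Depth is unknown, so a missing peak means that no signal passed the authors' threshold, not that the site was closed.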
